A study of Mus musculus with 6 samples.

Results

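The 9 genes described here encode enzymes that feed and turn the citric acid cycle in the mitochondrial matrix. They were chosen by name, as the rows with the symbols Pdha1, Cs, Idh3a, Idh3g, Ogdh, Dlst, Suclg1, Fh1 and Mdh2, and all 9 were present among the 24422 genes of the count tables and passed the filter on low counts, which left 15171 genes. RNA was sequenced from whole kidneys of C57BL/6 mice at postnatal day 60, all fed 220 ppm iron, in 3 control libraries (genotype wild type) and 3 TfR1KO;KspCre libraries (genotype Tfr1f/f;KspCre), here called knockouts. KspCre expresses Cre recombinase from the promoter of Ksp-cadherin, a cadherin of the distal nephron and collecting duct, so that the transferrin receptor TfR1 (gene Tfrc), the route for iron bound to transferrin, is deleted in part of the tubule while the whole organ is measured. Each library is a separate sample of its group. The controls are labelled wild type, and whether they carried the floxed allele or Cre is not given in the labels.

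The cycle condenses acetyl-CoA with oxaloacetate to citrate and oxidises it stepwise back to oxaloacetate, and the electrons it releases enter the respiratory chain. Several of its steps depend on iron through iron-sulfur clusters, as succinate dehydrogenase does. Pyruvate dehydrogenase and oxoglutarate dehydrogenase need a lipoyl group, which lipoate synthase, itself an iron-sulfur enzyme, makes. Proximal tubule and thick ascending limb cells are packed with mitochondria because they reabsorb most of the filtered salt. In RNA from a whole organ, fewer cells of a type and less RNA per cell cannot be told apart.

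Total counts ranged from 11501053 (knockout 3) to 21001341 (control 1). Tfrc counts gave no check of the genotype, with 1032 to 2856 counts in controls and 530 to 4368 in knockouts and the highest in knockout 1; a count over the gene takes in the exons that are not floxed. Control 2 held 52 counts of Xist and 3980 of 4 Y-linked genes, whereas the other 5 libraries held at least 10458 and at most 5. Rn45s, a ribosomal RNA gene, took 2.59% of the counts of knockout 3 and at most 0.745% elsewhere.

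All 9 genes were lower in knockouts. Each of the 9 had all 3 knockouts below all 3 controls in CPM (counts scaled to 1e+06 per library, with TMM, a normalization that balances most genes between libraries), a pattern that 22.2% of all genes tested shared. Their log2 fold changes, knockout minus control, ranged from -1.24 for Suclg1 to -0.58 for Cs with a median of -0.97, beside a median of 0.02 over all 15171 genes. With p-values adjusted over all genes by the method of Benjamini and Hochberg, edgeR's quasi-likelihood model called 4 of the 9 lower at an adjusted p under 0.05 (Fh1, Suclg1, Pdha1 and Idh3g) and 0 higher, where 6.64% of all genes were called lower and 17.2% in either direction. The other 5 genes (Dlst, Ogdh, Idh3a, Mdh2 and Cs) did not pass, and each of the 9 had an unadjusted p under 0.05, as did 38.6% of all genes. Of all counts, the 9 genes together took 0.348%, 0.338% and 0.316% in the controls, by replicate number, against 0.288%, 0.176% and 0.171% in the knockouts. The Wilson 95% intervals of these shares, which cover counting error alone, ran from 0.313% to 0.318% in the lowest control and from 0.286% to 0.290% in the highest knockout.

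**Figure D1:**
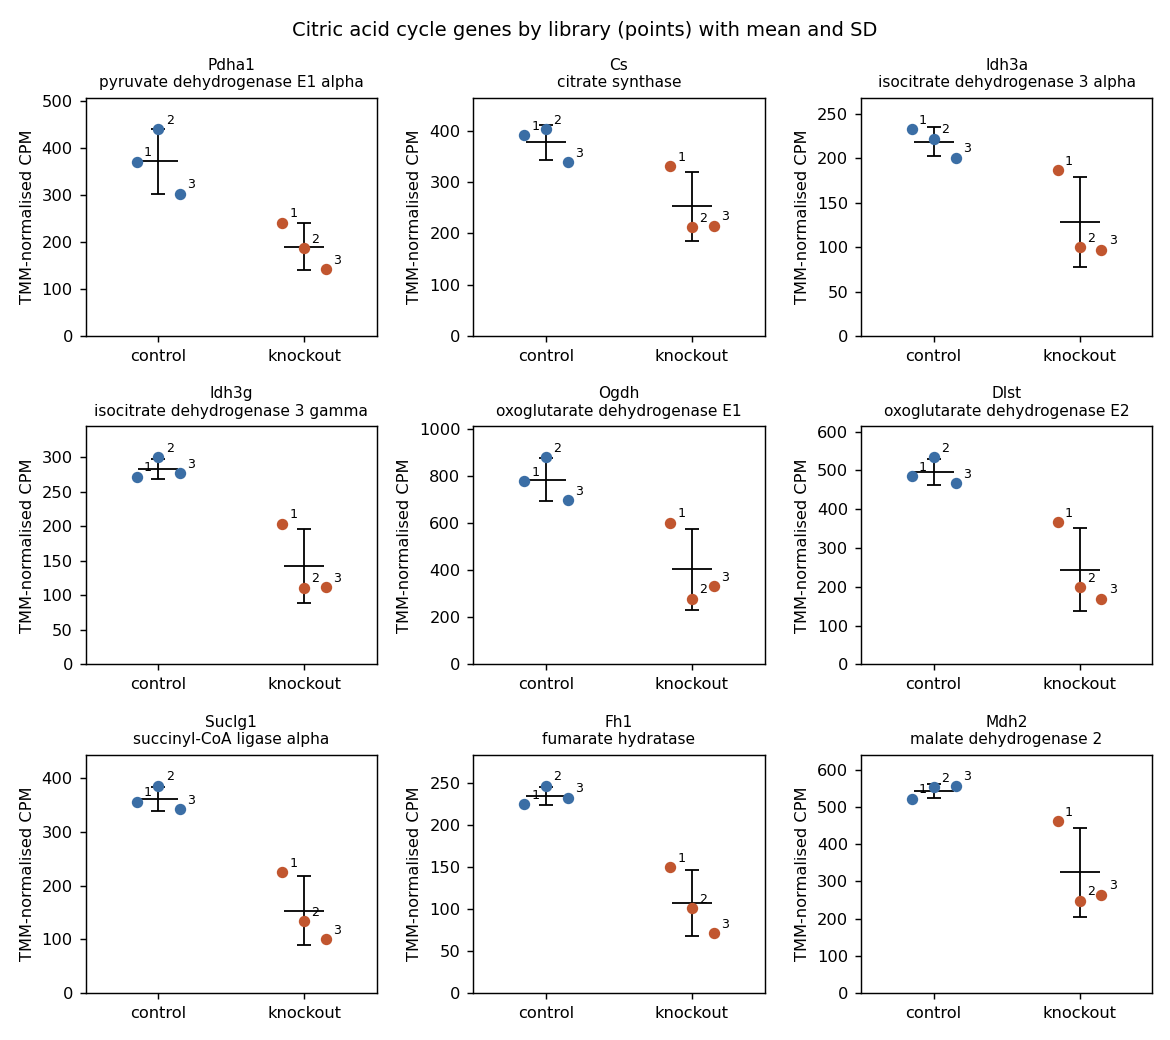
TMM-normalised CPM (vertical axes, each from 0) of the 9 genes in each of the 3 control and 3 knockout libraries; points are libraries numbered by replicate, and the horizontal mark and bar are the mean and SD. In every panel the 3 knockouts lie below the 3 controls, with knockout 1 highest among the knockouts.

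Pyruvate dehydrogenase links glycolysis to the cycle by making acetyl-CoA, and Pdha1 encodes the alpha subunit of its first component, the target of the inhibitory kinases. Pdha1 (ENSMUSG00000031299; chromosome X, 156560141 to 156576345, minus strand, mm9) stood at 371, 440.4 and 303 CPM in the controls, given here and below in the order of their numbers, and at 241, 187 and 142 CPM in the knockouts. The controls of Pdha1 were, relative to their mean, the most scattered of the 9 genes, and control 3 came closest to the knockouts. Its means were 371 ± 68.8 and 189.8 ± 49.6 CPM (± SD, n = 3 libraries per group), and its log2 fold change was -0.97 with an SE of 0.25 (adjusted p 0.0445 by edgeR). Map3k15 lies across it on the opposite strand and shares 603 exon bases with it, 16.0% of the exon length of Pdha1. As the strand setting of the counting is not given in the sources used here, the value of Pdha1 is uncertain to that extent; Map3k15 had a log2 fold change of -2.04 (edgeR, adjusted p 0.0291).

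Citrate synthase, encoded by Cs, performs the first condensation of the cycle and is widely used as a measure of mitochondrial content. Cs (ENSMUSG00000005683; chromosome 10, 127774888 to 127799535, plus strand) stood at 391, 404 and 339 CPM in controls and at 331, 212 and 215 CPM in knockouts. Knockout 1 lay just under control 3, so the gap between the groups was narrow. Its means were 378 ± 34.5 against 253 ± 67.7 CPM (± SD, n = 3 libraries per group). On the log2 scale the difference of Cs was the smallest of the 9, and it did not pass the test (log2 fold change -0.58, SE 0.23, edgeR adjusted p 0.109). Of 546 words of 100 bases from the Cs transcript, 3.85% also matched elsewhere in the genome with up to 2 mismatches, against 0.545% for Pdha1 and 0 for the other 7 genes.

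Isocitrate dehydrogenase 3, the NAD-dependent enzyme that commits the cycle to its oxidative arm, is built from alpha, beta and gamma subunits. The catalytic alpha subunit is encoded by Idh3a (ENSMUSG00000032279; chromosome 9, 54434288 to 54452468, plus strand), which stood at 233, 222 and 201 CPM in controls and at 186, 100.02 and 96.9 CPM in knockouts. Idh3g (ENSMUSG00000002010; chromosome X, 71024302 to 71032236, minus strand) encodes the regulatory gamma subunit and stood at 272, 299.6 and 277 CPM in controls and at 204, 111 and 112 CPM in knockouts. Knockouts 2 and 3 nearly coincided in both genes, and knockout 1 lay between them and the controls. Idh3g fell by 0.99 on the log2 scale (SE 0.27, edgeR adjusted p 0.0475), whereas Idh3a at -0.77 did not pass (SE 0.28, edgeR adjusted p 0.0882). The log2 ratio of Idh3a to Idh3g counts within a library, which no scaling between libraries can change, was -0.37 ± 0.13 in controls and -0.16 ± 0.04 in knockouts (SD, n = 3 each; exact permutation test, two-sided, p = 0.10, the smallest p that 3 against 3 allows, and 0.15 adjusted over 3 pairs). That ratio was higher in every knockout than in every control, but the difference of 0.21 moved to 0.29 without control 1 and to 0.17 without control 3. The beta subunit gene Idh3b, which is not among the 9, was called lower too, at -0.94 (SE 0.25, edgeR adjusted p 0.0476).

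The oxoglutarate dehydrogenase complex makes succinyl-CoA, with Ogdh encoding its first component and Dlst the lipoylated core. Ogdh (ENSMUSG00000020456; chromosome 11, 6191636 to 6256645, plus strand) stood at 779, 881 and 699.7 CPM in controls and at 602, 280.2 and 334 CPM in knockouts. For Dlst (ENSMUSG00000004789; chromosome 12, 86451783 to 86475041, plus strand) the values were 485, 533 and 468 CPM in controls and 366, 198 and 169 CPM in knockouts. In both genes knockout 1 was nearer to the controls than to the other knockouts. Neither gene passed, as the log2 fold changes were -0.96 (SE 0.32, edgeR adjusted p 0.0768) for Ogdh and -1.02 (SE 0.31, edgeR adjusted p 0.0622) for Dlst. The size of the Dlst difference exceeded that of Pdha1, which was called, and its SE was larger. The log2 ratio of Ogdh to Dlst was 0.66 ± 0.07 in controls and 0.73 ± 0.24 in knockouts (SD, n = 3 each), a difference of 0.07 within the spread between libraries (exact permutation test, two-sided, p = 0.80), which was 0.186 without knockout 2 and -0.0545 without knockout 3.

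Succinyl-CoA ligase, which Suclg1 serves as the alpha subunit shared by the GTP- and ATP-forming enzymes, is the substrate-level phosphorylation step of the cycle. Suclg1 (ENSMUSG00000052738; chromosome 6, 73198376 to 73226905, plus strand) stood at 356, 386 and 342 CPM in controls and at 226, 134 and 101 CPM in knockouts. Its means were 362 ± 22.4 and 153 ± 64.7 CPM (± SD, n = 3 libraries per group), and its difference of -1.24 in log2 was the largest fall of the 9 on that scale (SE 0.30, edgeR adjusted p 0.0401). Even knockout 1 was at 62.4% of the control mean. Set against Cs, the gene with the smallest log2 difference, Suclg1 had 0.911, 0.956 and 1.01 counts per Cs count in controls and 0.682, 0.632 and 0.468 in knockouts. This pair was chosen after its values were seen and is given as a description. The alternative beta subunits Suclg2 and Sucla2, which partner with Suclg1 in the GTP- and ATP-forming enzymes, were called lower at -1.10 (SE 0.27, edgeR adjusted p 0.0398) and -1.13 (SE 0.29, edgeR adjusted p 0.0448).

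Fumarate hydratase and malate dehydrogenase close the cycle. Fh1 (ENSMUSG00000026526; chromosome 1, 177530505 to 177555766, minus strand) encodes the first and stood at 225, 246 and 232 CPM in controls and at 149, 101 and 71.3 CPM in knockouts. Its controls spanned a narrow range and knockout 3 was at 30.4% of their mean. Means were 234 ± 10.97 and 107 ± 39.5 CPM (± SD, n = 3 libraries per group), and Fh1 fell by 1.13 on the log2 scale (SE 0.27, edgeR adjusted p 0.0385). Mdh2 (ENSMUSG00000019179; chromosome 5, 136254350 to 136266268, plus strand), the mitochondrial malate dehydrogenase, stood at 523, 553 and 557 CPM in controls and at 462, 248 and 264 CPM in knockouts. Mdh2 did not pass (log2 fold change -0.75, SE 0.27, edgeR adjusted p 0.0945). The log2 ratio of Fh1 to Mdh2 was -1.22 ± 0.05 in controls and -1.61 ± 0.29 in knockouts (SD, n = 3 each; exact permutation test, two-sided, p = 0.10, adjusted 0.15), and it was lower in every knockout than in every control. That difference of -0.39 was -0.25 without knockout 3 and -0.54 without knockout 2. Kmo overlaps the Fh1 locus on the opposite strand but shared 0 exon bases with Fh1.

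Per kilobase of exon (RPKM, from CPM and the length covered by all annotated exons), Mdh2 was the highest of the 9 genes in controls at 260.5 ± 9.0, followed by Dlst at 178 ± 12.2 and Ogdh at 144 ± 16.6 (SD, n = 3 each). Cs followed at 134 ± 12.2, which did not differ from Ogdh beyond their spread. Idh3g and Pdha1, at 105 ± 5.49 and 98.4 ± 18.2, overlapped as well. Idh3a (86.4 ± 6.47), Suclg1 (78.3 ± 4.85) and Fh1 (69.1 ± 3.23) were lowest with this length. In knockouts Mdh2 was still highest at 155 ± 57.1, and Fh1 (31.6 ± 11.6) and Suclg1 (33.2 ± 14.0) had the lowest levels, with SDs wide enough that most neighbours in the order overlapped. The order depends on the length used, which can exceed that of a single transcript. Suclg1 had 4617 exon bases, but its longest coding transcript gave 284 words of 100 bases. Mdh2, with 2089 exon bases, gave 272, so the low rank of Suclg1 may not hold with transcript lengths.

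The promoters of the 2 genes that fell most on the log2 scale, Suclg1 and Fh1, are shown with those of Idh3g, which was called and held a motif match, and of Cs, whose log2 difference was smallest. Each runs from 250 bases before to 50 bases after the gene's start (RefSeq, GRCm38.p6, so the coordinates are not those of mm9), 5′ to 3′ on the gene's strand, and capitals mark motif matches:
Suclg1 (chr6:73248255-73248554, plus strand): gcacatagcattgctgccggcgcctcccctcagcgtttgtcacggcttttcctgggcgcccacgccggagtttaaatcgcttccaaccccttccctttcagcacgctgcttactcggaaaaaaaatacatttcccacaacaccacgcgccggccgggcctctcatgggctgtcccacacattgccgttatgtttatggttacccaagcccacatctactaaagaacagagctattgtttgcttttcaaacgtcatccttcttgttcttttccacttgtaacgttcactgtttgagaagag
Fh1 (chr1:175625586-175625885, minus strand): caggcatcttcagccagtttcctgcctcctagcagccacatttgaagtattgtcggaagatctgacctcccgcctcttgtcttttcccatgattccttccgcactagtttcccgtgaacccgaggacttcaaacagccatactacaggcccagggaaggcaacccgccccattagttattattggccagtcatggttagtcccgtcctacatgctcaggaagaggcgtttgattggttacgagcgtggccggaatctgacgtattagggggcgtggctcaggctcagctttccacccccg
Idh3g (chrX:73786848-73787147, minus strand): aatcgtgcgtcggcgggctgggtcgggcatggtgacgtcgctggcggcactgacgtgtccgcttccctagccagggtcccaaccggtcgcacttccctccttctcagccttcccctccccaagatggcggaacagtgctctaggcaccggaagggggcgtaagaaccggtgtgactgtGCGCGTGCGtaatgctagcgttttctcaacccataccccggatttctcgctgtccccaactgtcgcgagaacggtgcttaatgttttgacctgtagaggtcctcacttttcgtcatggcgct
Cs (chr10:128337477-128337776, plus strand): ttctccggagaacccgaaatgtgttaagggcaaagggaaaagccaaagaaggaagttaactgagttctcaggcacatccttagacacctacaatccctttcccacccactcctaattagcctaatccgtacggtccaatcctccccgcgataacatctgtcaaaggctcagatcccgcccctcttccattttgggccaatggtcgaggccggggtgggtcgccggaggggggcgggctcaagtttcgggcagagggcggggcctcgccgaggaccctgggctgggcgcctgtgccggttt

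Motifs of 3 factors linked to mitochondrial genes were looked for on both strands in these windows. The NRF1 core GCGCNTGCG was found in promoters of Idh3g, Ogdh and Pdha1, in 4 of the 13 windows listed for 8 of the genes, where 6.31% of all 32851 promoter windows held it; the 2 windows of Ogdh that held it overlap and share the match. In Idh3g the match read GCGCGTGCG and began 72 bases before the start. An ETS site, CCGGAAGT, stood at the start of Dlst on the opposite strand, against 3.89% of all windows. The half-site of the oestrogen-related receptors, TNAAGGTCA, was in 0 of the 13 windows and in 1.28% of all windows. These letters describe the windows and are not evidence of binding. Idh3a had no entry in the promoter table.

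The rest of the cycle was examined next, from 8 genes that encode its other subunits. All 8 had every knockout below every control, and 4 were called lower (Idh3b, Suclg2, Sucla2 and Sdhb), with a median log2 fold change of -1.02. Succinate dehydrogenase, which is also complex II of the respiratory chain, had its iron-sulfur subunit gene Sdhb at -1.30 (SE 0.36, edgeR adjusted p 0.0498), while Sdha, Sdhc and Sdhd did not pass (-1.03, -0.99 and -0.82; edgeR, adjusted p 0.0805, 0.0662 and 0.0885). Idh3b, Sucla2 and Sdha each overlap a gene or pseudogene on the opposite strand, so their values carry the same uncertainty about strand as that of Pdha1, to an extent not measured here.

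**Figure D2:**
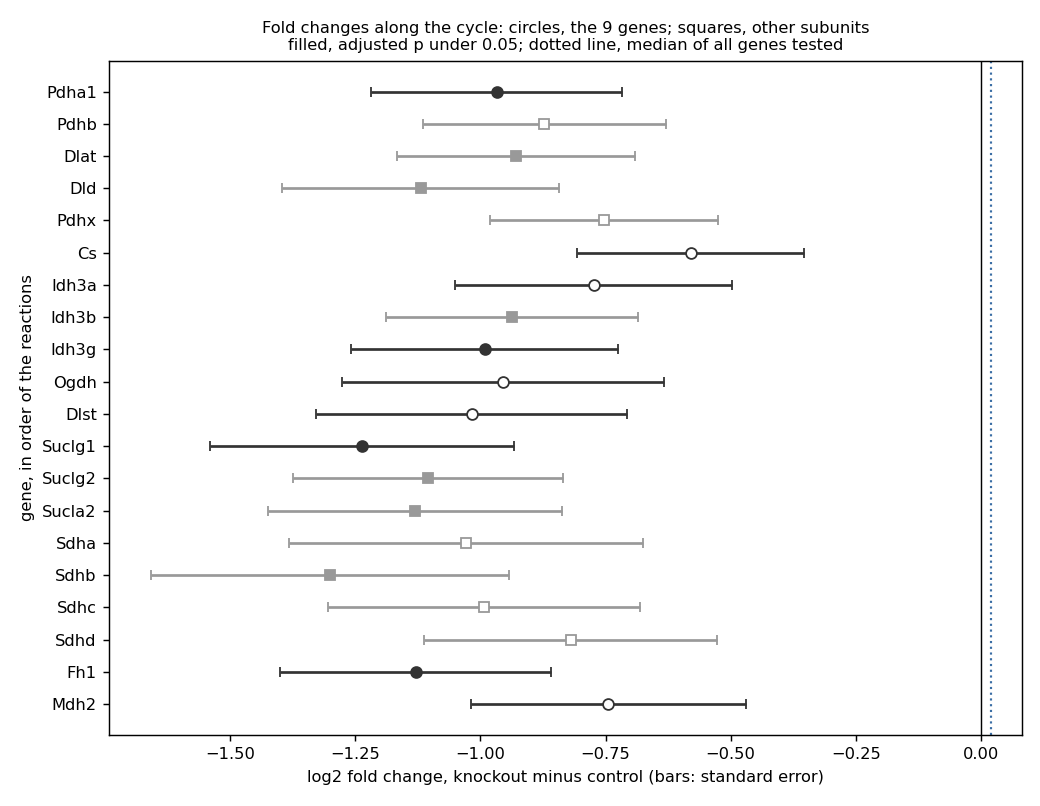
Log2 fold change, knockout minus control (horizontal axis; bars, standard error) of the 9 genes (circles) and of other subunits of pyruvate dehydrogenase and the cycle (squares), in order of the reactions; filled symbols had an adjusted p under 0.05 and the dotted line is the median of all genes tested. All symbols lie left of 0, from -1.30 for Sdhb to -0.58 for Cs.

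Of 11 genes for the remaining subunits of pyruvate dehydrogenase and for its regulators, 4 were called lower, 0 higher, and 10 had a log2 fold change below 0. The subunit genes Dld (the dihydrolipoyl dehydrogenase shared with oxoglutarate dehydrogenase) and Dlat (the lipoylated core) were called, at -1.12 and -0.93 (edgeR, adjusted p 0.0408 and 0.0431), and Pdhb and Pdhx were not (-0.87 and -0.75; edgeR, adjusted p 0.0508 and 0.0609). Among the enzymes that switch the complex off or on, the kinase Pdk2 fell by 1.34 and the phosphatase Pdp2 fell by 1.43 on the log2 scale (edgeR, adjusted p 0.0332 and 0.0271). The kinase Pdk1, a target of hypoxia-inducible factor, stood at 88.4, 69.4 and 72.6 CPM in controls and at 101, 64.6 and 54.9 CPM in knockouts, with overlapping groups (log2 fold change -0.06; edgeR, adjusted p 0.872). Pdk4 and Pdp1 overlapped between groups as well (-0.65 and 0.32; edgeR, adjusted p 0.268 and 0.421).

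Isozymes that stand beside the cycle gave 2 calls of 8, both lower. These were Aco1, the cytosolic aconitase that without its cluster binds iron-responsive elements as IRP1 (-1.26; edgeR, adjusted p 0.0384), and the malic enzyme Me1 (-1.65; edgeR, adjusted p 0.0313). Cytosolic Mdh1 and the NADP-dependent Idh1 and Idh2 had log2 fold changes of -1.34, -0.86 and -1.01 and did not pass (edgeR, adjusted p 0.0658, 0.0851 and 0.113). Of 7 genes that add or remove cycle intermediates, 3 were called lower and 1 higher. The log2 fold changes were -1.83 for Pcx (pyruvate carboxylase), -2.20 for Pck1 (the cytosolic phosphoenolpyruvate carboxykinase of gluconeogenesis) and -0.79 for Glud1 (glutamate dehydrogenase), with edgeR adjusted p of 0.0278, 0.0277 and 0.0348. Pck2, the mitochondrial isozyme of Pck1, rose, from a mean of 28.2 ± 4.56 CPM to one of 52.9 ± 11.4 CPM (± SD, n = 3 libraries per group), with all knockouts above all controls and a difference of 0.91 in log2 (SE 0.20, edgeR adjusted p 0.0345). Of the 3 lipoylation genes (Lias, Lipt1, Lipt2) 0 were called by edgeR or limma-voom and 1 by DESeq2, and 1, lipoate synthase Lias, had an unadjusted p under 0.05 in edgeR (-0.56, SE 0.18, adjusted p 0.0664). Over all genes, DESeq2 called 32.2% and limma-voom 13.4% in either direction.

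A further list of 10 genes, taken as measures of mitochondrial content (import channels, porins, chaperones, Tfam and Cycs), had a median log2 fold change of -0.68. By edgeR 1 of them was called, Tfam, the packaging factor of mitochondrial DNA (-0.72; edgeR, adjusted p 0.0478), with 7 at an unadjusted p under 0.05, whereas DESeq2 called 7 and limma-voom 0. Of all genes, DESeq2 called 15.0% lower and limma-voom 6.05%, and 38.6% had an unadjusted p under 0.05 in edgeR. The summed CPM of the 9 cycle genes per summed CPM of these 10 was 1.03, 0.929 and 0.970 in controls and 0.935, 0.871 and 0.975 in knockouts. The groups therefore overlapped in this ratio, although both sums were lower in knockouts.

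Markers of cell types differed in how far they moved with these values. Proximal tubule markers (8 genes, such as Lrp2, megalin) had a summed level of 11735 to 15964 CPM in controls and 2003 to 6377 CPM in knockouts, and 6 of 8 were called lower with a median log2 fold change of -2.14. Knockouts 1 to 3 held 44.9%, 16.8% and 14.1% of the control mean of these markers, beside 75.4%, 42.8% and 41.0% for the 9 cycle genes. The cycle genes thus kept a larger share of their control level than the proximal markers in each knockout. Thick ascending limb markers (5 genes, such as Umod, uromodulin) were at 3980 to 9711 CPM in controls, 6200 CPM in knockout 1, and 867 and 1181 CPM in knockouts 2 and 3. By edgeR 0 of 5 were called, with 1 at an unadjusted p under 0.05, and DESeq2 called 1 and limma-voom 0. These 2 tools called 32.2% and 13.4% of all genes in either direction. In summed CPM, knockout 1 was inside the control range of the limb markers and, at 2767 against 3417 to 3965 CPM, below that of the 9 cycle genes. Umod and Slc12a1 made up most of that limb sum (3444 and 2221 CPM in knockout 1), and the 5 markers differed. Umod, Slc12a1 and Kcnj1 were inside their control ranges in knockout 1. Cldn10 was below its own (144 against 187 to 279 CPM), and Cldn16 was just above (16.0 against 11.2 to 15.7 CPM). Control 3 had the lowest limb level among controls, at 52.9% of the control mean, and 93.1% for the cycle genes.

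Distal convoluted tubule markers (4 genes) were at 1940.2 to 3056 CPM in controls and 152 to 2281 CPM in knockouts with 1 called lower, and collecting duct markers (6 genes) at 914 to 1255 and 416 to 1455 CPM with 0 called by edgeR or limma-voom, 1 by DESeq2 and 1 at an unadjusted p under 0.05. Leukocyte markers (6 genes, such as Ptprc) rose, all 6 being called, from 205 to 268 CPM in controls to 1143 to 2800 CPM in knockouts. Fibroblast markers (5 genes, such as Col1a1) were at 254 to 483 CPM in controls and 923 to 3563 CPM in knockouts, with 4 called higher. Of all 15171 genes, edgeR called 1604 higher. Podocyte markers (4 genes) were at 517 to 637 and 622 to 921 CPM with 1 called higher, and endothelial markers (4 genes) at 261 to 485 and 488 to 514 CPM with 0 called by edgeR or limma-voom, 1 by DESeq2 and 2 at an unadjusted p under 0.05. Red cell markers had 2 of 6 genes tested, 0 of them called by edgeR, DESeq2 or limma-voom or at an unadjusted p under 0.05, and the other 4, the globin genes, were listed at 0 in all libraries. No marker of the other lists was at 0 in all libraries, and the part of these cell types in the levels of the cycle genes was not tested.

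**Figure D3:**
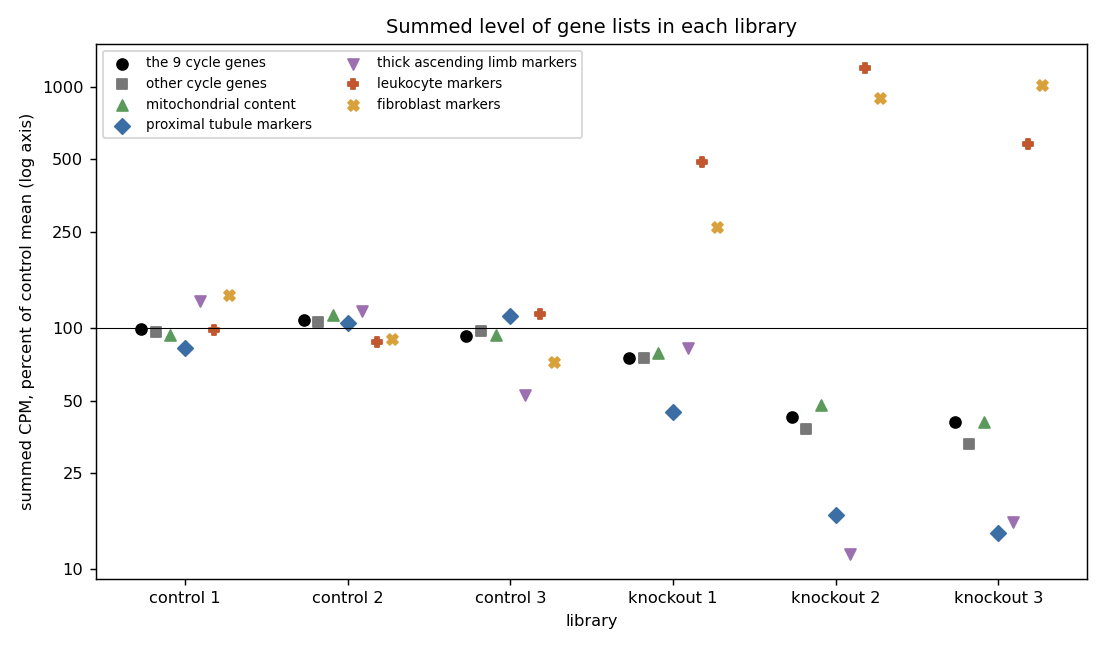
Summed CPM of gene lists in each library as a percentage of the mean of the 3 controls (vertical log axis; 1 symbol per list). In knockouts 2 and 3 the 9 cycle genes sit near 42.8% and 41.0%, above the proximal tubule markers at 16.8% and 14.1%, and leukocyte and fibroblast markers lie above every control.

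Of the 11241 genes outside the gene lists described here whose average log2 CPM was 3 or more, the 5 whose profile over the 6 libraries came closest to the mean profile of the 9 (smallest root mean square difference of centred log2 CPM) included Uqcc1, Lama1, Acadvl and Tmem97. The differences of these 4 from it were 0.0421 to 0.0665, and those of the 9 genes themselves were 0.0625 (Idh3g) to 0.212 (Cs). Uqcc1 (an assembly factor of respiratory complex III) and Acadvl (an enzyme of long-chain fatty acid oxidation) belong to mitochondria, whereas Lama1 encodes a laminin chain of basement membrane and Tmem97 a membrane protein. Uqcc1 stood at 76.6, 81.6 and 74.0 CPM in controls and at 58.1, 36.1 and 31.1 CPM in knockouts, with groups apart.

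The number of calls among the 9 changed whenever a single library was left out, as did the number over all genes. Without knockout 1 all 9 genes were called lower, where 16.4% of all genes were, and the median log2 fold change was -1.35. With control 1, 2 or 3 or knockout 2 or 3 left out in its place, 0 of the 9 were called by edgeR, with 6, 5, 8, 5 and 5 of them, in that order, at an unadjusted p under 0.05. Of all genes, 0, 0, 0, 73 and 2 were called in these fits and 31.0%, 27.4%, 30.9%, 29.9% and 28.9% had an unadjusted p under 0.05. The medians of the 9 were -0.99, -0.88, -1.04, -0.84 and -0.81. DESeq2's Wald test over all 6 libraries called all 9 lower, where it called 15.0% of all genes lower. With library size alone in place of TMM the median of all genes moved from 0.02 to 0.29 and that of the 9 from -0.97 to -0.70, and 2 of the 9 (Suclg1 and Fh1) were called lower, where 4.36% of all genes were. Lower calls then made up 18.2% of the calls over all genes, against 38.6% with TMM. The groups were apart for 6 of the 9, since Cs, Idh3a and Mdh2 overlapped, where 11.4% of all genes lay apart in that direction. The direction was lower in all 144 values of the 9 genes under 16 alternatives, and in each of the 17 fits Suclg1 had the lowest and Cs the highest log2 fold change.

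**Figure D4:**
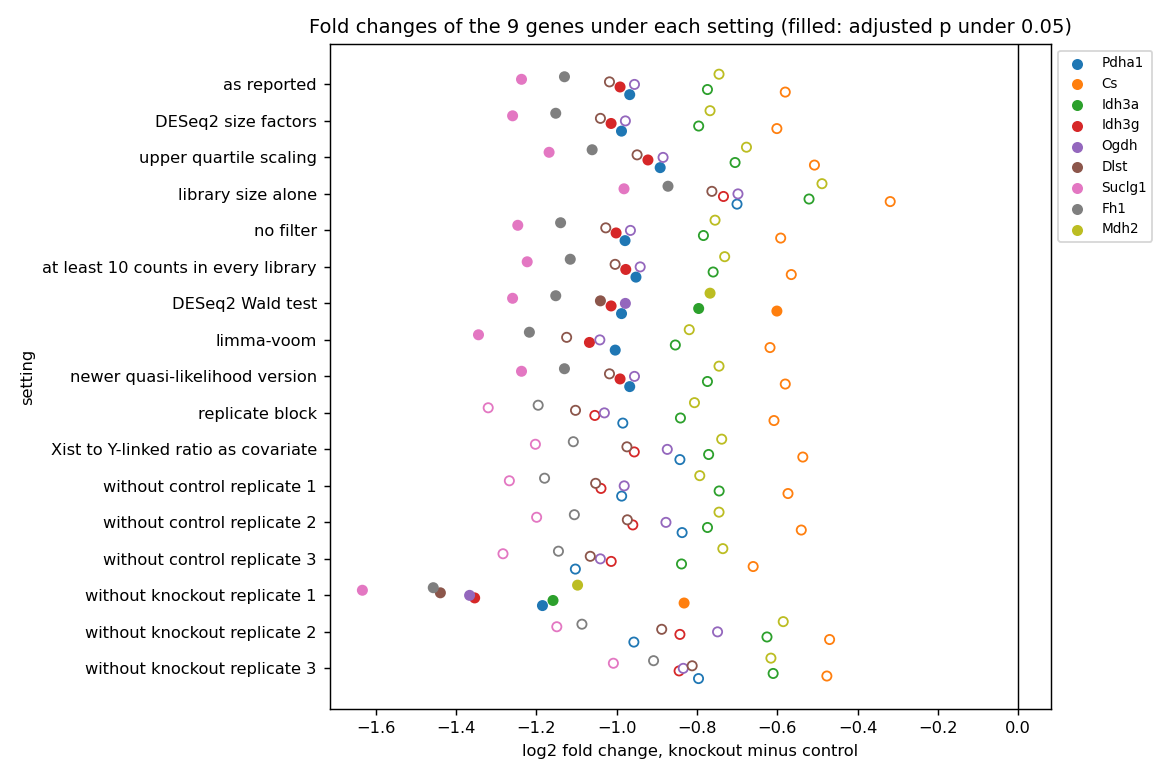
Log2 fold change, knockout minus control (horizontal axis), of the 9 genes under each setting (vertical axis; filled points, adjusted p under 0.05). All points lie below 0; they move furthest from it without knockout 1, where all 9 are filled, and Suclg1 and Cs mark the ends of each row.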

How the data were processed

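Poly-A RNA from whole kidneys was sequenced as single-end reads of 100 bases. The authors deposited unnormalised counts for each gene, as a table for each group. According to the study's methods and the submitters' processing notes, CASAVA 1.8.2, Trimmomatic, TopHat2 2.0.11 on mm9 and HTSeq were used on uniquely mapped reads. Gene annotation and strand setting are not given in the sources used here. Groups and replicate numbers came from the sample titles; the series gives 3 biological replicates per group, and the study describes 3 mice per model with littermate controls, without tying libraries to litters.

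Counts were fitted with edgeR 4.0.16 in R 4.3.3 (filterByExpr with a minimum count of 10 and a minimum total of 15, TMM, legacy glmQLFit and glmQLFTest, no covariate) and adjusted by Benjamini-Hochberg over 15171 genes at a threshold of 0.05. The SE is the log2 fold change divided by the square root of F. Alternatives used DESeq2 1.42.0 on the filtered genes, limma-voom (limma 3.58.1), other scalings and filters, single libraries left out, a replicate block and an Xist to Y-linked covariate. Log2 CPM used a prior count of 2. Coordinates and exon lengths are from GENCODE M1 (mm9), and transcript words were mapped with minimap2 2.31. The test was checked on simulated data. The members, lists and motifs were chosen with earlier results of these data known. Named are the 9 genes, genes of the fixed lists (those described were chosen after their values were seen), genes of the 5 closest in profile among those outside the lists averaging 3 or more in log2 CPM, and overlapping neighbours. Replicates differed beyond sampling noise, and 0 per-sample columns were left unused. Single values of some genes of these lists are not reported here.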

Additional observations from a re-analysis of the deposited data

How the results depend on the processing

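Across the alternatives run, the direction of the 9 cycle genes was lower throughout, whereas how many were called was not stable. Over all genes, 2612 were called with all 6 libraries, 4882 by DESeq2's Wald test, and 0 by edgeR with a replicate block or with the Xist to Y-linked covariate (5432 and 4221 genes at an unadjusted p under 0.05); fits without 1 library gave 0 to 5332. Among the 9 cycle genes, 4 were called with all 6 libraries, 9 by DESeq2's Wald test, 2 with library size alone, and 0 by edgeR with the replicate block or the covariate (9 and 5 at an unadjusted p under 0.05). The median log2 fold change of the 9 was -1.03 with the block and -0.87 with the covariate, against -0.97 without either. Fits without 1 library gave 0 to 9 calls, with 9 in the fit without knockout 1 and 0 in each of the other 5. The cause of these changes in calls was not tested. Whether the replicate numbers pair the libraries is not stated in the labels. Deviations from the group mean correlated at -0.13, 0.01 and 0.21 between libraries of like number, which cannot decide it. The difference in the log2 ratio of Ogdh to Dlst ran from -0.0545 without knockout 3 to 0.186 without knockout 2. Cs had an unadjusted p of 0.0382 and missed the threshold after adjustment over all genes (edgeR, adjusted p 0.109, and 0.0110 without knockout 1). Knockout 3 was the shallowest library.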
